A study of Mus musculus with 36 samples.

Results

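Keratins and claudins, the filament proteins of epithelial cells and the sealing proteins of their tight junctions, were followed through 16 microdissected regions of the mouse embryo. Members were all array probes whose gene symbol is Krt or Cldn, then a number and at most 1 letter, kept where the detection p-value was under 0.01 on at least 1 array. The detection p-value sets the brightness of a probe against the negative-control beads of the same array, and a probe under 0.01 is called detected here. The table held 89 such probes of 68 symbols, among 45281 probes of 30869 symbols. Of these, 37 probes of 32 genes were detected, 19 keratins and 13 claudins, among 21712 detected probes of 15556 symbols.

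RNA of pooled pieces from untreated wild-type embryos of the outbred MF1 strain was read, after amplification, on 36 arrays of the Illumina MouseWG-6 BeadChip. The E7.5 (headfold stage) pieces were an anterior region (A, 3 arrays), a posterior region (P, 2 arrays) and the proximal posterior end (PP, 2 arrays). The E8.5 pieces, of embryos with 2 to 5 somites, were the rostral node (RN, 2 arrays), the node-streak border (NSB, 3 arrays), the caudal lateral epiblast (CLE, 3 arrays) and the most rostral and most caudal parts of the primitive streak (St1 and St5, 2 arrays each). Tail bud pieces were the chordoneural hinge (CNH), at E9.5 (22 to 25 somites), E10.5 (32 to 35), E11.5 (40 to 45), E12.5 (50 to 55) and E13.5 (60 to 63), and the tissue behind it (P-CNH), at E9.5 to E11.5, with 3 arrays for E11.5 CNH and 2 for each of the others. An array held 6 to 74 pooled pieces, each a mixture of cell types, and the number of arrays limits the precision of every value. According to the methods of the study, endoderm came along with the early pieces other than the CLE, and surface ectoderm was expected in St5 and in the E13.5 CNH.

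Keratins assemble as pairs of a type I and a type II chain, so that Krt18 pairs with Krt8 in simple, single-layered epithelia and Krt14 with Krt5 in the basal layer of stratified epithelia. Hair keratins form the hard filaments of hair and nail. Claudins span the membrane and close the space between neighbouring cells, and the set of claudins a cell makes decides which ions pass its tight junctions.

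Several arrays stood apart before any comparison was made. The signal over background, the median intensity of detected probes over the background level of the array, was 2.33 on E13.5 CNH replicate 2 and 2.28 on CLE replicate 1, where 10814 and 11062 probes were detected. Its highest value was 15.1, on E7.5 PP replicate 2, and the most detected probes were 16256. Replicates correlated across probes at a Pearson r of 0.858 in the E13.5 CNH, 0.859 in the E11.5 P-CNH and 0.877 between CLE replicates 1 and 2, and at up to 0.997 in the E9.5 CNH. The labels put the arrays into 3 batches of 12. Batch 1 held every array of both E10.5 regions, of St1, of St5 and of the RN, and NSB replicates 1 and 2, so that NSB replicate 3 is the single array that links batch 1 to batches 2 and 3.

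The dissections were set against markers of the tissues they should hold. Sox17, Foxa2 and Foxa1, transcription factors of endoderm, were detected on no CLE array, whereas the RN and NSB arrays had all of them. Noto, which marks the node and the notochord, was detected on both RN and all NSB arrays and on the CNH arrays of E9.5 to E12.5, and it was not detected on E13.5 CNH replicate 2. It was also detected outside these regions, on both E7.5 P arrays, E7.5 A replicate 2, St1 replicate 2 and E11.5 P-CNH replicate 2. Trp63, the p53 relative that marks stratifying surface ectoderm, was detected on no array before E11.5, including those of St5, and on both E13.5 CNH arrays.

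Detection divided the members into 4 classes. Krt8, Krt18, Krt10, Cldn6, Cldn9 and Cldn12, 6 genes, were detected on all 36 arrays. Another 10 genes, Krt7, Krt19, Krt23, Krt36, Cldn3, Cldn4, Cldn5, Cldn7, Cldn10 and Cldn11, were detected on 10 to 35 arrays, and 13 genes were detected on 2 to 9. Krt5, Krt15 and Krt33a were each detected on 1 array. The members nearest inside the detection threshold were Krt33a, with a lowest detection p of 0.00748, Krt15 with 0.00641 and Krt222 with 0.00214. Nearest outside it were Krt75 with 0.0107, a second probe of Krt82 with 0.015 and Krt24 with 0.016. Keratins detected on all arrays of a region numbered 4 in the CLE and the E9.5 P-CNH and 10 in the E11.5 P-CNH and the E13.5 CNH, and claudins ranged from 3 in the E9.5 P-CNH to 10 in E7.5 A and the RN.

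**Figure D1:**
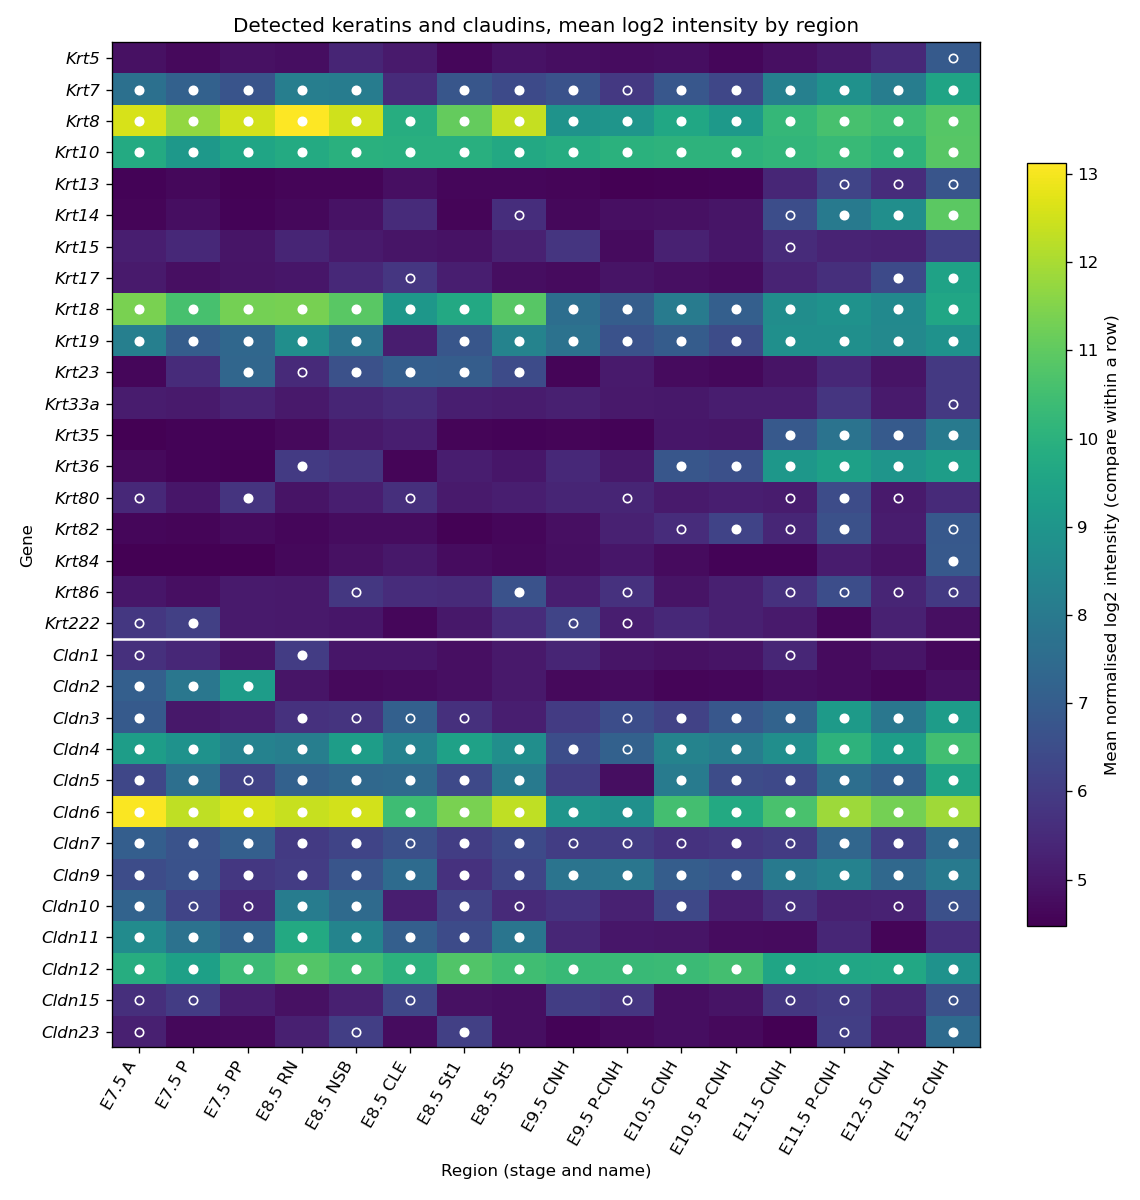
Mean normalised log2 intensity of the 32 detected keratin and claudin genes (vertical axis) in the 16 regions (horizontal axis), with a filled dot where a gene was detected on all arrays of the region and a ring where only some detected it. Krt8, Krt18, Krt10, Cldn6, Cldn9 and Cldn12 carry filled dots in all 16 regions, and most other genes in fewer; colours compare regions within a gene, not genes with each other.

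The symbols without a detected probe were 36, of which 28 are keratins and 8 claudins. They were Krt2, Krt4, Krt6a, Krt6b, Krt9, Krt12, Krt16, Krt20, Krt24 to Krt28, Krt31, Krt32, Krt33b, Krt34, Krt39, Krt40, Krt42, Krt71, Krt73 to Krt75, Krt77 to Krt79, Krt83, Cldn8, Cldn13, Cldn14, Cldn16 to Cldn19 and Cldn22. They include Krt4, the partner of Krt13 in internal stratified epithelia, and Krt6a, Krt6b and Krt16 of hair follicles and wounded skin. Failing detection means that a probe did not stand above the control beads of any array, and a low level of the transcript can go unseen by this measure.

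Each comparison was tested on normalised log2 intensities in 1 linear model of all 36 arrays, with terms for region and batch, and a probe was called when its p, adjusted by Benjamini-Hochberg over all tested probes, was 0.05 or less and its fold change 1.5 or more. A member seen on few arrays entered the test through the region where it is high, so that its counts lean towards a difference. At E8.5, 2 of the 37 member probes were called higher in St5 and 0 lower, compared with the average of the remaining 4 regions, where 2.73% and 2.74% of all 21712 probes were called. In the CLE, 0 were called higher and 3 lower, against 0.101% and 0.912% of all probes. In the RN, 7 were called higher and 0 lower, against 1.88% and 0.368%. These 3 comparisons share their arrays, since each region is also part of what the others are compared with.

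At E7.5, 1 member probe was called higher and 0 lower in A than in P (1.21% and 1.52% of all probes), and 2 were called higher and 0 lower in PP than in P (0.391% and 0.401%). Between the E7.5 PP and the E8.5 St5, which both lie at the caudal end of the streak, 0 were called higher and 2 lower in St5 (0.474% and 0.553%). In the E10.5 CNH against the E8.5 NSB, 1 was called higher and 5 lower (3.54% and 3.6%). The E13.5 CNH held the most, 16 higher and 1 lower than the mean of the CNH from E9.5 to E12.5, against 7.71% and 7.89% of all probes. In the CNH against the P-CNH over E9.5 to E11.5, limma called 0 of 37 member probes in either direction (0.497% and 0.101% of all probes), and 7 had an unadjusted p under 0.05. The median log2 difference of the members was 1.08 in the E13.5 comparison against -0.08 over all probes. Elsewhere it lay between -0.39, in the CLE (0.01 over all probes), and 0.51, in St5 against PP (-0.06 over all probes), with 0.13 in St5 (0.00), 0.11 in the RN (-0.03), 0.17 in A (0.04), -0.17 in PP (0.01), -0.16 in the E10.5 CNH (-0.01) and -0.02 in the CNH against the P-CNH (0.00).

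The simple keratins Krt8 and Krt18 were high in the primitive streak stages and fell in the tail bud. The log2 intensity of Krt8 at E7.5 was 12.09, 11.87 and 13.87 in A, 11.71 and 11.73 in P, and 12.54 and 12.55 in PP. At E8.5 it was 13.13 and 13.11 in the RN, 12.37, 12.45 and 12.71 in the NSB, 8.92, 10.58 and 10.05 in the CLE, 11.21 and 10.97 in St1, and 12.38 and 12.33 in St5. The CLE arrays were below all other E8.5 arrays, and the RN arrays above them, with no overlap on either side. In the tail bud the Krt8 log2 intensity was 8.96 and 8.87 in the E9.5 CNH, 9.88 and 9.37 in the E10.5 CNH, 10.23, 9.71 and 10.77 in the E11.5 CNH, 10.39 and 10.48 in the E12.5 CNH, and 10.95 and 10.74 in the E13.5 CNH. In the P-CNH it was 9.45 and 8.49 at E9.5, 9.33 and 8.92 at E10.5, and 10.83 and 10.37 at E11.5. Every tail bud array lay below every E7.5 array and below every E8.5 array outside the CLE, and the E9.5 and E10.5 arrays were the lowest of the tail bud except that E11.5 CNH replicate 2 fell among them.

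Krt18, the partner of Krt8, had a similar but not identical order of regions. Its log2 intensity was 11.36 and 11.34 in the RN, 10.78, 10.73 and 11.18 in the NSB, 8.34, 9.83 and 9.00 in the CLE, 9.84 and 9.56 in St1, and 10.92 and 10.83 in St5. Its CLE values overlapped those of St1. It was 7.67 and 7.52 in the E9.5 CNH and 9.24 and 9.93 in the E13.5 CNH, and its lowest value, 6.12, was on E9.5 P-CNH replicate 2. Over the means of the 16 regions, the log2 intensities of the 2 genes had a Pearson r of 0.98 and a Spearman rho of 0.97, and an r of 0.97 without E7.5 A and the RN, the regions farthest from the median. The points of this description share arrays, normalisation and stage, and no test is attached to it.

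The promoters of Krt8, Krt18 and Krt7 are shown because Krt8 and Krt7 were called lower in the CLE and higher in the RN, and Krt18, called in neither, is the partner of Krt8. Krt19 was called in both comparisons as well, but no promoter was found for it. The 3 promoters shown lie on chromosome 15. Each is the stretch of 250 bases before the start of the gene in RefSeq (GRCm38.p6), read 5′ to 3′ on the strand of the gene, at chr15:102004343-102004592 on the minus strand for Krt8, and on the plus strand at chr15:102027966-102028215 for Krt18 and chr15:101412153-101412402 for Krt7. Capitals mark matches, on either strand, to CAGGTG (an E-box that Snail and Zeb repressors can bind), GCCNNNGGC (an AP-2 motif) and GGGCGG (a GC box).
Krt8: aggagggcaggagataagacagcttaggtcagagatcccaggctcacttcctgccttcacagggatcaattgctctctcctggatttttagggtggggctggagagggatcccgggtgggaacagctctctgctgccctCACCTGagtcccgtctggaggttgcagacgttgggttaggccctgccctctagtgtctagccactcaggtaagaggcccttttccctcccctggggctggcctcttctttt
Krt18: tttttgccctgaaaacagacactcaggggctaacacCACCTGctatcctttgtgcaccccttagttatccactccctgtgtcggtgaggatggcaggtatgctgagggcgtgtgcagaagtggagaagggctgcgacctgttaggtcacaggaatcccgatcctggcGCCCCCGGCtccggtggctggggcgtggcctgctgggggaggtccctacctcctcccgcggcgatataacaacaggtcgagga
Krt7: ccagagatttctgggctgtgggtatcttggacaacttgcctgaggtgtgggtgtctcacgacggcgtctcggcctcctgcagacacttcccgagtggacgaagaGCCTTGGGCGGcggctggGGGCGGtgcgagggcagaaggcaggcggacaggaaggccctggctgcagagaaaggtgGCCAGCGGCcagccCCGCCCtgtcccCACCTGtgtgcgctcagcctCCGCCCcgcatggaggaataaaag
CAGGTG was found once in each promoter, with its farther end 111 bases before the start in Krt8, 214 in Krt18 and 44 in Krt7. Of 32851 RefSeq promoter windows of the same length, 17.2% hold it. GCCNNNGGC had 1 match in Krt18 and 2 in Krt7 (13.7% of windows), and GGGCGG had 4 in Krt7 (32.7%), 1 of which shares bases with an AP-2 match. TATAAA (12.4%), AACCGGTT, a Grainyhead motif (0.116%), and TGTTTAC, a forkhead motif (3.17%), were in none of the 3 windows. A match says that these letters are present, and no binding was measured.

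In the CLE, the epiblast beside the streak, Krt19, Krt7 and Krt8 were called lower. Krt19, a small type I keratin of simple epithelia, had log2 intensities of 4.73, 5.06 and 5.70 in the CLE, 8.76 and 8.75 in the RN, 7.77, 7.17 and 8.43 in the NSB, 6.82 and 6.74 in St1, and 8.38 and 8.31 in St5. Krt7, a type II keratin of ducts and simple epithelia, had 5.20, 5.71 and 5.75 in the CLE, 8.18 and 8.19 in the RN, 7.89, 7.54 and 8.86 in the NSB, 6.77 and 6.82 in St1, and 6.65 and 6.18 in St5. Neither probe was detected on any CLE array, both were detected on every other E8.5 array, and the CLE values of both lay below all others. Where the dimmer side holds a group whose arrays all failed to detect the probe, the difference is given as at least N-fold, from group means in which each array of the dimmer side that did not detect the probe is set to the higher of its own value and its lowest detected log2 value. These means are not adjusted for batch, and no fold is given where one taken this way, or with the limit set only in wholly undetected groups, exceeded the fitted fold. Krt19 was at least 2.59-fold lower in the CLE than the other 4 regions averaged (adjusted p = 0.000132) and Krt7 at least 1.78-fold lower (adjusted p = 0.00768). Krt8 fell by 2.48 log2 units (SE 0.584, adjusted p = 0.0379). Krt18, with a log2 difference of -1.92 (SE 0.596, adjusted p = 0.204), and Cldn6, with -1.69 (SE 0.53, adjusted p = 0.215), did not pass.

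Within batch 3, the only batch with the CLE and another E8.5 region, CLE replicates 2 and 3 differed from NSB replicate 3 by -3.05 in Krt19, -3.13 in Krt7 and -2.39 in Krt8 on the log2 scale. NSB replicate 3, with a signal over background of 2.89, is also the only array that ties the CLE arrays to batch 1. These values are therefore part of the fitted differences and no separate check on them. The Krt8 call was lost with the replicate number as a block beside batch, and was kept in 21 of 35 refits without 1 array each. It was lost without CLE replicate 1 or 3, either array of RN, St1, St5, E9.5 CNH or E7.5 PP, or NSB replicate 1 or 2, where its log2 difference lay between -2.78 and -2.23 over all these refits. Without CLE replicate 1, 4 member probes were called, with Krt19 and Krt7 among them, and with cyclic loess Krt7 was not called. With no batch term 11 member probes were called, which added Krt18, Krt36, Krt86, Cldn3, Cldn6, Cldn9, Cldn10 and Cldn15. With a random effect of BeadChip in its place 9 were called, the same without Cldn9 and Cldn15. These additions did not share a direction. The CLE means of Cldn3 (7.12), Cldn9 (7.49) and Cldn15 (6.31) lay above those of all other E8.5 regions, at most 5.78, 6.75 and 5.24. The CLE means of Krt18, Krt36 and Cldn6 lay below those of all other E8.5 regions. These means are not adjusted for batch, and no CLE array is in batch 1. Within batch 3, the CLE differed from NSB replicate 3 by 0.88 in Cldn3, but by -0.54 in Cldn9 and 0.02 in Cldn15. For Krt18, Krt36 and Cldn6 these differences were -1.76, -1.58 and -1.73. In pooled pieces, fewer cells of an epithelial type and less RNA in each such cell cannot be told apart, here or in any result below.

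Of 8 genes of definitive endoderm and gut, 5 fell in the CLE, and their median log2 difference was -2.92 against 0.01 over all probes. Spink3, a secreted protease inhibitor, fell by 5.00 log2 units (SE 0.861, adjusted p = 0.00231), and Sox17 was at least 4.54-fold lower (adjusted p = 7.87e-07). Tmprss2, a membrane protease of epithelia, fell by 3.48 (SE 0.627, adjusted p = 0.00354). The summed linear level of the list was 4150, 4910 and 2770 in the CLE, led by Trh, 14400 and 13200 in the RN, 15300, 14500 and 15800 in the NSB, 14400 and 12100 in St1, and 12300 and 12000 in St5, with no overlap between the CLE and the rest. Of 7 visceral endoderm genes, the carrier protein Ttr was at least 7.62-fold lower (adjusted p = 0.018), and no other gene of that list passed. Their summed level was 464, 582 and 281 in the CLE, against 2680 and 1980 in the RN, 1190, 702 and 1340 in the NSB, 3080 and 932 in St1 and 2080 and 2170 in St5. None of the 9 tested epithelial junction genes, Cdh1 (E-cadherin) among them, passed in the CLE, where their median log2 difference was 0.03, and neither did any of the 7 surface ectoderm genes (median 0.72). The summed level of the epithelial junction genes, led by Spint1, was 13300, 9150 and 6720 in the CLE and between 6900 and 9480 on the other E8.5 arrays. The part of endoderm in the keratin result was not tested.

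**Figure D2:**
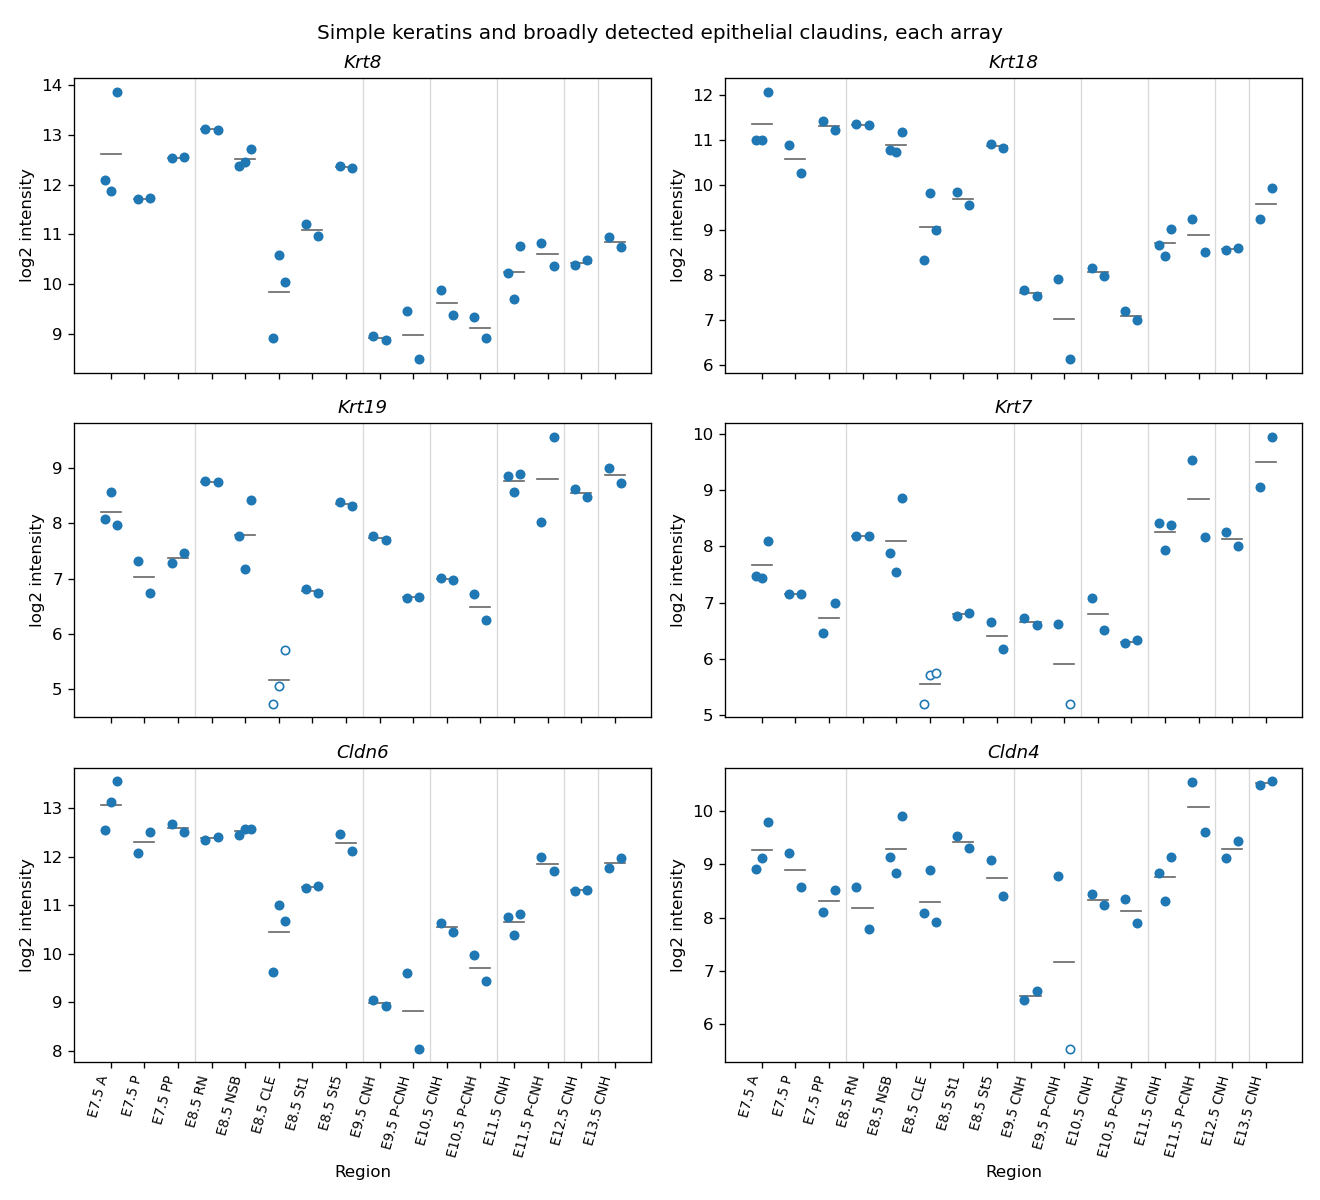
Normalised log2 intensity of Krt8, Krt18, Krt19, Krt7, Cldn6 and Cldn4 on each array, by region, with filled points where the probe was detected, open points where it was not, and a grey line at the region mean. Krt19 and Krt7 are undetected on all 3 CLE arrays, and Krt8 stands at 13.13 and 13.11 in the RN and at 8.96 and 8.87 in the E9.5 CNH.

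In the RN, the node and the tissue just ahead of it, Krt8, Krt19 and Krt7 were called higher together with 2 claudins described further on. Krt8 was higher by 1.72 log2 units than the other 4 E8.5 regions averaged (SE 0.389, adjusted p = 0.0137), Krt19 by at least 2.61-fold (adjusted p = 0.000254) and Krt7 by at least 2.33-fold (adjusted p = 0.00407). The RN values of Krt8 and Krt19 lay above all other E8.5 arrays, and those of Krt7 overlapped the NSB. Within batch 1, against NSB, St1 and St5 alone, the log2 differences were 1.17 for Krt8, 1.22 for Krt19 and 1.21 for Krt7. Krt18 had a log2 difference of 1.33 (SE 0.397, adjusted p = 0.106) and did not pass. Without either RN replicate, Krt8, Krt7 and Cldn11 lost their calls and 4 member probes were called. Over the refits without 1 array each, the fitted log2 differences stayed between 1.65 and 1.79 for Krt8, 1.75 and 1.93 for Krt7, and 2.26 and 2.52 for Cldn11.

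Of 6 notochord genes, 4 were called higher in the RN (median 2.22 against -0.03 over all probes), with Shh, the secreted signal of the notochord, at least 12.6-fold higher (adjusted p = 7.96e-06) and the BMP inhibitor Chrd higher by 2.51 log2 units (SE 0.5, adjusted p = 0.004). Of 8 endoderm genes, Foxa2, at least 3.18-fold higher (adjusted p = 0.000764), and Foxa1, at least 3.09-fold (adjusted p = 0.00953), passed, while the summed endoderm level given above lay below the NSB and overlapped St1. The summed notochord level, led by T on every array, was 10300 and 12600 in the RN, 11300, 14000 and 12400 in the NSB, 3380, 3080 and 7000 in the CLE, 5690 and 7080 in St1, and 5660 and 6030 in St5. The RN and NSB thus overlapped in this sum and lay above the other E8.5 regions. Of 4 blood genes, 3 globins were called higher in the RN (median 2.44), and the summed blood level there was 3200 and 1710, led by Hbb-bh1, against at most 961 on any other E8.5 array. The part of these cell types in the keratin values was not tested.

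St5, the caudal end of the streak, differed from the average of the other 4 E8.5 regions in Krt19 and in 1 of 2 probes of Krt86. With the values given above, Krt19 in St5 lay above all CLE and St1 arrays, below both RN arrays, and overlapped the NSB, and it was at least 1.84-fold higher than the other 4 regions averaged (adjusted p = 0.00289). Krt86, a type II hair keratin, was read by probes that differed in call. The log2 intensity of the dimmer probe (ILMN_2732782) was 6.53 and 5.86 in St5 and between 4.55 and 5.64 on the other E8.5 arrays, none of which detected it, and it was at least 1.22-fold higher (adjusted p = 0.00456). The brighter probe (ILMN_2635325) read 6.81 and 6.49 in St5 and was not called (adjusted p = 0.0733). Over the 16 region means the 2 probes had a Pearson r of 0.78 and a Spearman rho of 0.50, and an r of 0.34 without St5 and the E11.5 P-CNH. Within batch 1 the differences in St5 were 0.68 for Krt19 and 1.04 for the Krt86 probe. The Krt86 call was lost with a larger offset (100). Without St5 replicate 1 neither was called, and 0 member probes were called in St5 at all. With cyclic loess 6 were called, which added 2 probes of Cldn10, the brighter one of Krt86 and Cldn23. With quantile normalisation, the St5 differences within batch 1 were -1.71, -1.21 and -0.44 for the probes of Cldn10 and -1.02 for Cldn23. The brighter Krt86 probe differed by 1.27.

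Surface ectoderm genes were higher in St5 than in the other E8.5 regions in 2 of 7 cases, with a median log2 difference of 1.35. Dlx3, a homeobox gene of ectoderm, was higher by 1.85 (SE 0.391, adjusted p = 0.00352) and the AP-2 factor Tfap2a at least 2.59-fold (adjusted p = 0.0029). The summed level of the list was 2890 and 2600 in St5, led by Tfap2c, 816 and 851 in the RN, 887, 934 and 1300 in the NSB, 822 and 782 in St1, and 5350, 3570 and 2460 in the CLE. The CLE overlapped St5, and the other regions lay below both. Endothelial genes were called higher in 4 of 6 cases (median 2.12), with a summed level of 1660 and 2000 in St5 against at most 471 elsewhere at E8.5. Tek, an angiopoietin receptor, was at least 3.65-fold higher (adjusted p = 2.69e-05) and the cadherin Cdh5 at least 2.94-fold (adjusted p = 2.78e-05). Of the endoderm genes 3 were called higher and 1 lower (median 0.22), of the notochord genes 3 lower (median -1.62), of the desmosome genes Dsg2 was called higher (median -0.06), and of the tight junction genes Magi1 was called lower (median -0.07). Their part in the Krt19 and Krt86 values was not tested.

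Between the E8.5 NSB and the E10.5 CNH, regions that both hold neuromesodermal progenitors, Krt8 and Krt18 fell. Krt8 fell by 2.79 log2 units (SE 0.443, adjusted p = 0.000131) and Krt18, at 8.15 and 7.98 in the E10.5 CNH, by 2.69 (SE 0.452, adjusted p = 0.000259). Neither overlapped between the regions. Krt23, a type I keratin, had log2 intensities of 6.66, 6.05 and 7.11 in the NSB and of 4.80 and 4.66, both undetected, in the E10.5 CNH, a level at least 1.99-fold lower (adjusted p = 0.00951). Krt36, a type I hair keratin, went the other way, from 5.69, 5.45 and 6.14 in the NSB, all undetected, to 6.87 and 6.73, at least 1.87-fold higher (adjusted p = 0.0141). Krt19 and Krt7 did not pass, with Krt19 at 7.01 and 6.98 and Krt7 at 7.09 and 6.52 in the E10.5 CNH. NSB replicate 3 is the only array that ties batch 1 to the other batches, so the fitted differences are those within batch 1, and within-batch values are no separate check here. The Krt36 and Krt23 calls were both lost without NSB replicate 1 or without either E10.5 CNH replicate, and Krt36 also without NSB replicate 2, which left 4 and 5 member probes called. The Krt36 call was also lost with cyclic loess, with a larger offset (100) and when background was not corrected, and the Krt23 call with the larger offset.

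Of 9 epithelial junction genes, 5 fell between the same regions, with a median log2 difference of -1.46 against -0.01 over all probes, among them Cdh1, which fell by 3.50 (SE 0.499, adjusted p = 3.37e-05), the splicing factor Esrp1, which fell by 2.48 (SE 0.654, adjusted p = 0.0183), and the vesicle protein Rab25, at least 6.59-fold lower (adjusted p = 0.00233). The summed level was 7990, 8120 and 8070 in the NSB and 2290 and 2280 in the E10.5 CNH, led by Spint1 in both. Ovol2, St14, Spint2 and Rab25 were undetected in the E10.5 CNH. Ovol2 was undetected on all NSB arrays as well, and Spint2 on NSB replicates 1 and 3. Of 8 desmosome genes, Dsg2 fell by 2.70 (SE 0.387, adjusted p = 3.61e-05), Pkp2 by 1.63 (SE 0.245, adjusted p = 6.96e-05), and Ppl was at least 1.73-fold lower (adjusted p = 0.041), with a list median of -0.37. Of 12 tight junction genes, F11r was called lower (adjusted p = 1.90e-06), Cgnl1 was higher by 1.52 (SE 0.463, adjusted p = 0.0492), and the median was -0.19. Of 8 endoderm genes 4 fell (median -1.71), with a summed level of 15300, 14500 and 15800 in the NSB and 3600 and 3140 in the E10.5 CNH. Of the visceral endoderm genes 2 of 7 fell (median -0.75), and of the surface ectoderm genes 2 of 7 (median -1.03), whose summed level was 887, 934 and 1300 in the NSB and 375 and 351 in the E10.5 CNH. Globins and endothelial genes were higher in the E10.5 CNH, in 3 of 4 and 2 of 6 genes, with medians of 5.30 and 1.22. Their part in the keratin result was not tested.

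In the later tail bud, Krt7 and Krt18 were called higher at E13.5 than in the earlier CNH. Krt7 was 6.72 and 6.61 in the E9.5 CNH, 8.42, 7.94 and 8.38 in the E11.5 CNH, 8.25 and 8.01 in the E12.5 CNH and 9.06 and 9.95 in the E13.5 CNH. Both E13.5 arrays lay above all earlier CNH arrays, and Krt7 was higher there by 1.75 log2 units than the mean of the earlier CNH (SE 0.352, adjusted p = 0.00167). Krt18 was higher by 1.23 (SE 0.381, adjusted p = 0.0315), a call lost with the replicate number as a block beside batch and without replicate 2 of the E12.5 or the E13.5 CNH. Krt8, with a difference of 0.94 (SE 0.373, adjusted p = 0.0848), and Krt19, with 0.62 (SE 0.306, adjusted p = 0.166), did not pass. Krt19 read 7.77 and 7.69 in the E9.5 CNH, 8.86, 8.57 and 8.89 in the E11.5 CNH, 8.62 and 8.48 in the E12.5 CNH, and 9.01 and 8.73 in the E13.5 CNH.

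Keratins of stratified epithelium had their highest values in the E13.5 CNH. Krt14, the basal-layer keratin of skin, was detected before E11.5 on 1 array, St5 replicate 2 at 5.84, while St5 replicate 1 read 5.34. Its log2 intensity was 7.26, 4.68 and 7.58 in the E11.5 CNH, where replicate 2 did not detect it, 8.91 and 7.15 in the E11.5 P-CNH, 9.00 and 8.53 in the E12.5 CNH, and 10.75 and 11.12 in the E13.5 CNH. The E13.5 arrays lay above all others, and Krt14 was at least 16.2-fold higher there than in the mean of the earlier CNH (adjusted p = 1.36e-05). Krt17, a keratin of periderm and skin appendages, was 6.83 and 5.98 in the E12.5 CNH and 8.90 and 10.00 in the E13.5 CNH, and undetected on all arrays of the CNH at E9.5 to E11.5. It was at least 10.4-fold higher at E13.5 (adjusted p = 4.18e-07), and CLE replicate 2, at 6.74, was the only array before E12.5 that detected it.

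Krt13, of the upper layers of internal stratified epithelia, read 6.55 and 6.96 in the E13.5 CNH, where only replicate 1 detected it, and between 4.48 and 5.79 on the earlier CNH arrays, of which E12.5 replicate 2 detected it. It was at least 1.79-fold higher (adjusted p = 5.96e-05). Krt5, the partner of Krt14, was detected on E13.5 CNH replicate 1 alone, at 8.45, while replicate 2 read 5.40 and the earlier CNH arrays 4.63 to 5.69. Its call, at least 2.03-fold (adjusted p = 0.0142), rested on that array, since its log2 difference was -0.01 without replicate 1. Krt5 also entered the test through that array alone. Krt15, another basal keratin, was detected only on E11.5 CNH replicate 3, at 5.96, while E13.5 CNH replicate 2 read 6.47 without detecting it, and it was not called in any comparison. Krt10, the keratin of differentiating epidermal cells, was detected on all arrays between 8.34, on E7.5 P replicate 1, and 11.19, on E13.5 CNH replicate 2, and was not called in any comparison.

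**Figure D3:**
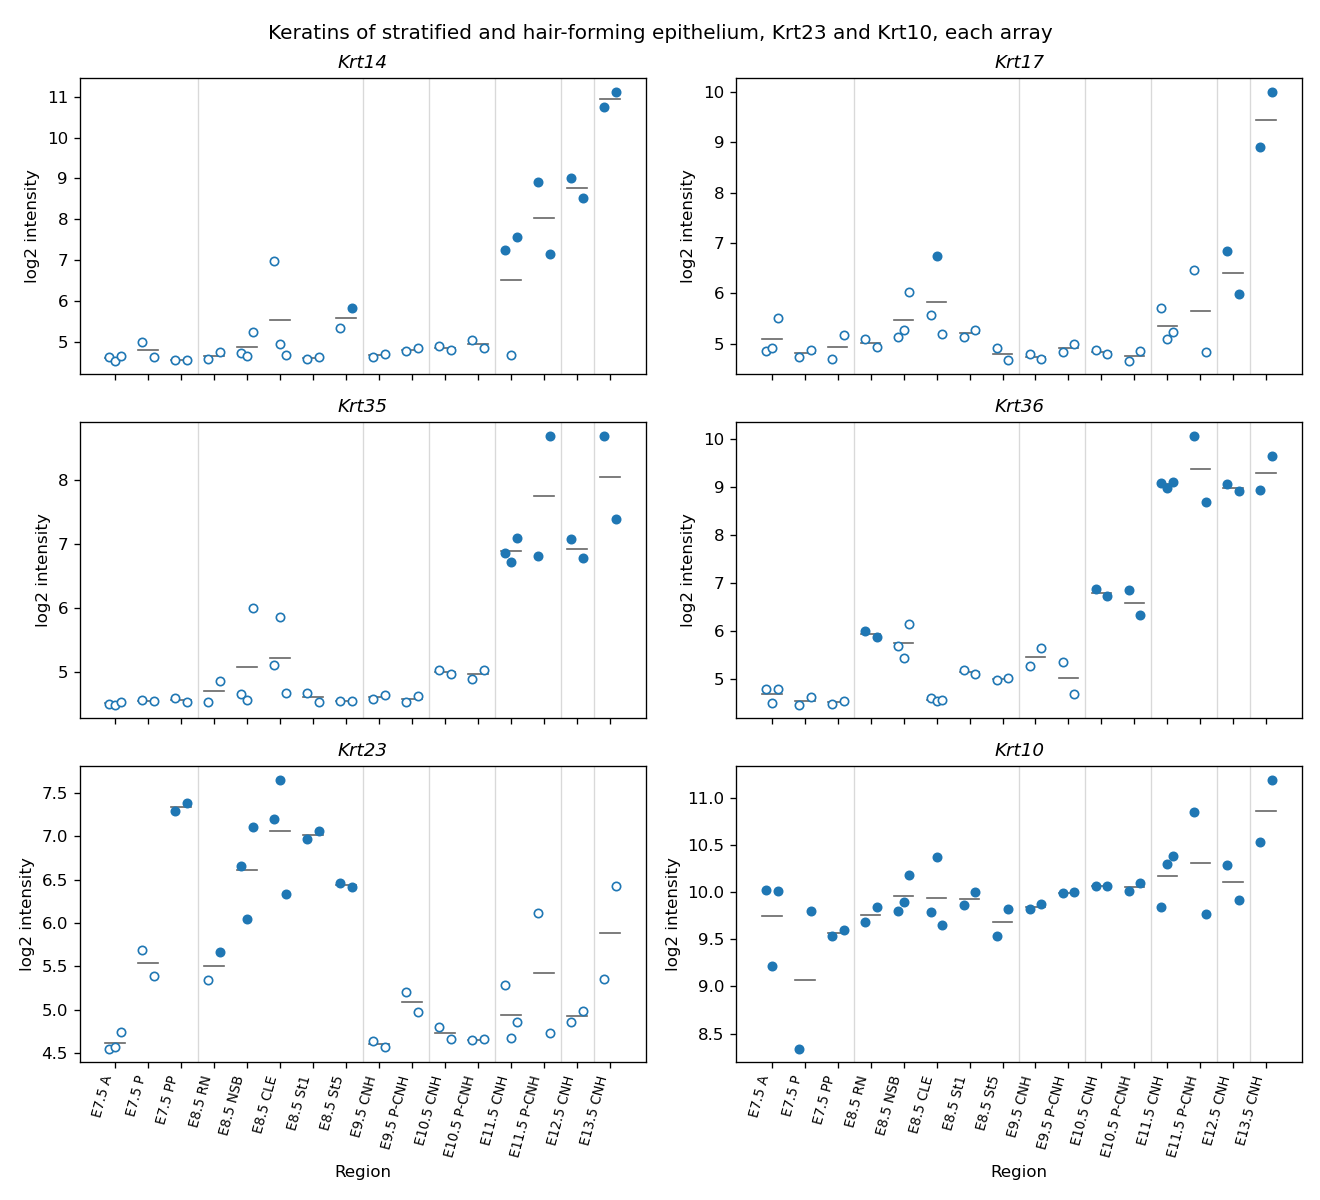
Normalised log2 intensity of Krt14, Krt17, Krt35, Krt36, Krt23 and Krt10 on each array, by region, with filled points where the probe was detected, open points where it was not, and a grey line at the region mean. Krt14 reads 10.75 and 11.12 and Krt17 8.90 and 10.00 in the E13.5 CNH, above all other arrays.

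Other surface ectoderm genes were higher in the E13.5 CNH. Of 7 genes, 6 were called higher than in the earlier CNH, with a median log2 difference of 2.65, and Grhl3 did not pass. Tfap2c was higher by 3.39 (SE 0.433, adjusted p = 1.37e-05), the secreted signal Wnt6 by 2.72 (SE 0.466, adjusted p = 0.000365), and Trp63 was at least 5.15-fold higher (adjusted p = 3.06e-06). The summed level of the list was 469 and 501 in the E9.5 CNH, 375 and 351 at E10.5, 1990, 1100 and 1690 at E11.5, 4510 and 3560 at E12.5 and 6020 and 7620 at E13.5. It was led by Tfap2c from E11.5 on, and the stages from E10.5 to E13.5 did not overlap in it. Msx2, also of the list, had no detected probe.

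Of 9 epithelial junction genes, 7 were called higher at E13.5 (median 1.64), among them Rab25, at least 6.92-fold (adjusted p = 0.000304), Cdh1, at least 4.61-fold (adjusted p = 0.000582), and Esrp1, at least 3.04-fold (adjusted p = 0.00786). Their summed level was 4110 and 8260 at E13.5 against 2560 and 2510 at E9.5, 2290 and 2280 at E10.5, 2170, 1930 and 1940 at E11.5 and 2360 and 2450 at E12.5. Of 8 desmosome genes, 4 were called higher (median 1.10), Pkp3 by at least 3.71-fold (adjusted p = 0.000611), Evpl by 1.44 log2 units (SE 0.457, adjusted p = 0.0355) and Ppl, detected on 1 of the 2 E13.5 arrays, by at least 1.44-fold (adjusted p = 0.0234). Of 12 tight junction genes, 3 were called higher (median 0.51), with the adhesion molecule F11r (adjusted p = 0.000458) among them and the polarity protein Pard6b, detected on 1 of the 2 E13.5 arrays, at least 1.29-fold (adjusted p = 0.04). Epcam, Marveld2, Jup, Dsc2, Dsg3, Dsc3 and Perp had no detected probe. Endothelial genes were called higher in 6 of 6 cases (median 1.64), and their values stand with Cldn5 below. The part of surface ectoderm and of the other cell types in the keratin results was not tested.

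The 2 E13.5 arrays did not carry these results equally. Without replicate 2, 11 member probes were called, 10 of them among the 17 of both replicates, and Krt7, Krt18, Krt82, Cldn4, Cldn5, Cldn6 and Cldn7 lost their calls. Without replicate 1, 24 were called, 15 of them among the 17, and Krt5 and Cldn12 lost theirs. The fitted log2 difference of Krt14 was 4.87 without replicate 1 and 4.33 without replicate 2, and that of Krt17 was 4.43 and 3.40. Within batch 2, where replicate 1 stands beside arrays of the E9.5, E11.5 and E12.5 CNH, the Krt14 difference was 4.20 and that of Krt17 3.24. Within batch 3, where replicate 2 stands beside E11.5 and E12.5 arrays, they were 3.06 and 4.40. With cyclic loess in place of quantile normalisation 11 of the 17 were called, and the split over all probes moved from 1674 higher and 1712 lower to 849 higher and 365 lower.

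**Figure D4:**
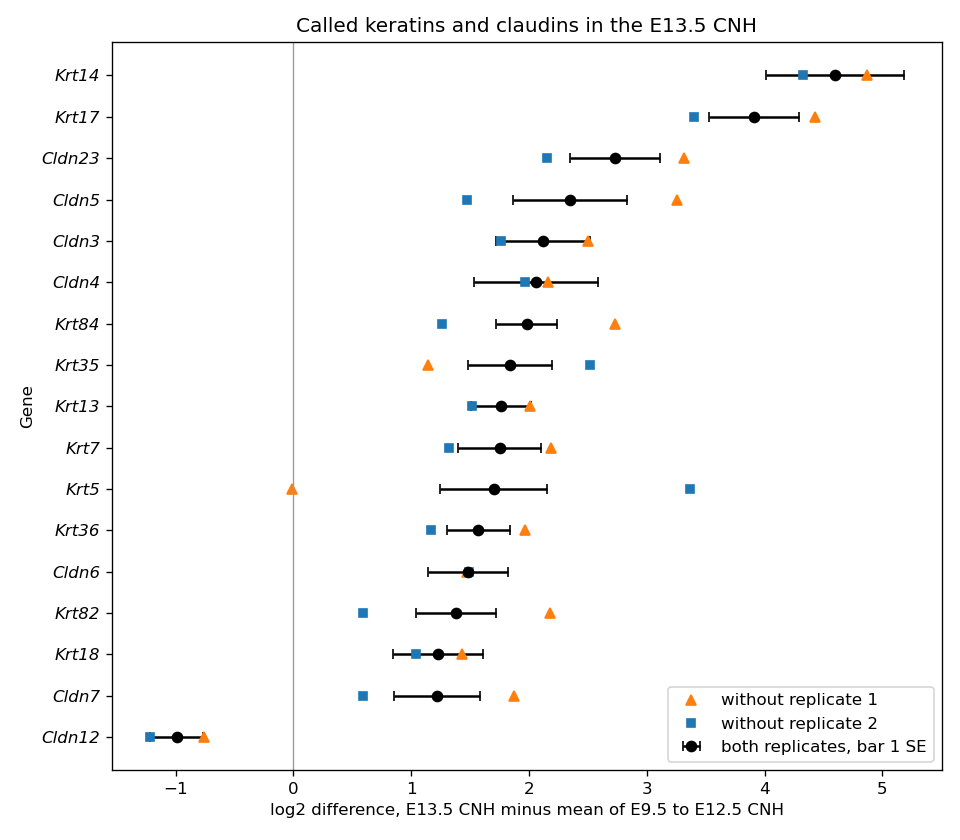
Fitted log2 difference of the 17 called keratins and claudins in the E13.5 CNH against the mean of the E9.5 to E12.5 CNH, with a bar of 1 SE for both replicates (circles), and the same without replicate 1 (triangles) or replicate 2 (squares). Krt14 stays between 4.33 and 4.87, Krt5 moves from 3.37 without replicate 2 to -0.01 without replicate 1, and Cldn12 is the only gene below 0 in the fit of both replicates.

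Some hair keratins were detected in the later tail bud, well before hair forms. Krt86, the hair keratin described with St5, did not follow them. Its brighter probe read 6.81 and 6.49 in St5 and 4.62 and 7.29 in the E13.5 CNH, where it was not called. The E13.5 differences of that probe were -0.68 within batch 2 and 1.52 within batch 3. Krt36 had log2 intensities of 6.87 and 6.73 in the E10.5 CNH, 9.07, 8.98 and 9.10 in the E11.5 CNH, 10.06 and 8.69 in the E11.5 P-CNH, 9.05 and 8.91 in the E12.5 CNH and 8.93 and 9.64 in the E13.5 CNH, and it was undetected on both E9.5 CNH arrays. From E11.5 on it lay above every earlier array. At E13.5 its arrays overlapped those of E11.5 and E12.5, and its call against the mean of the earlier CNH, at least 2.88-fold higher (adjusted p = 0.000308), came with low values at E9.5 and E10.5. It was also detected on both RN arrays, at 6.00 and 5.87. A second, dimmer Krt36 probe (ILMN_2985042) was detected on 7 arrays, all from E11.5 on, and was not called at E13.5. Its difference was 0.86 within batch 2 and -2.11 within batch 3, where E13.5 CNH replicate 2 read 4.97 and did not detect it. Over the 16 region means the 2 probes had a Pearson r of 0.91 and a Spearman rho of 0.90, and an r of 0.93 without the E11.5 P-CNH and the E13.5 CNH.

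Krt35, a type I hair keratin, was detected on 9 arrays, which were all those of E11.5 to E13.5. It read 6.86, 6.71 and 7.09 in the E11.5 CNH, 6.81 and 8.69 in the E11.5 P-CNH, 7.07 and 6.78 in the E12.5 CNH and 8.69 and 7.39 in the E13.5 CNH. The E13.5 arrays lay above all other CNH arrays, and Krt35 was at least 3.09-fold higher (adjusted p = 0.00116). Krt84 and Krt82, type II hair keratins, read 6.18 and 7.61 and 5.96 and 7.71 in the E13.5 CNH. Krt84 was detected on these 2 arrays alone and was at least 2-fold higher (adjusted p = 1.96e-05), with a fitted log2 difference of 2.73 without replicate 1 and 1.26 without replicate 2. It entered the test only through the arrays in which it was then found higher. Krt82, detected on replicate 2 but not on replicate 1, was at least 1.89-fold higher (adjusted p = 0.00861). Krt82 was also detected on both P-CNH arrays of E10.5, at 6.64 and 5.79, and of E11.5, at 7.09 and 6.17, and on 1 CNH array of each of these stages, at 5.72 and 5.84. Krt33a was detected on E13.5 CNH replicate 2 alone, at 7.30, and was not called in any comparison. Within batch 3 the difference of Krt35 was 0.45 and that of Krt36 0.63, and within batch 2 they were 2.53 and 1.09. With cyclic loess Krt35, Krt36, Krt82, Krt84 and Krt13 were not called.

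Of the other keratins, Krt23 had its highest values early. It was detected on both E7.5 PP arrays, at 7.29 and 7.38, and on no other E7.5 array. At E8.5 it read 7.20, 7.65 and 6.33 in the CLE, 6.97 and 7.06 in St1, 6.46 and 6.41 in St5 and 5.34 and 5.67 in the RN, where only replicate 2 detected it. PP and P did not overlap in it (5.69 and 5.39 in P), and the difference, at least 2.42-fold, did not pass (adjusted p = 0.0911). Krt80, a widely made type II keratin, was detected on 9 arrays, all of batch 3, between 5.62 and 7.02, the highest on E11.5 P-CNH replicate 1. Krt222, a short relative of the type I keratins, was detected on 5 arrays, the highest being E7.5 A replicate 1 at 6.55. Neither was called in any comparison.

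Claudins of embryonic epithelia were detected widely. Cldn6, which is made in the early epiblast and in embryonic epithelia, had log2 intensities between 12.08 and 13.55 at E7.5. At E8.5 it read 12.35 and 12.41 in the RN, 12.44, 12.56 and 12.56 in the NSB, 9.63, 11.00 and 10.68 in the CLE, 11.36 and 11.40 in St1 and 12.47 and 12.11 in St5. It was 9.04 and 8.93 in the E9.5 CNH, 10.63 and 10.45 in the E10.5 CNH, 10.76, 10.39 and 10.81 in the E11.5 CNH, 11.30 and 11.31 in the E12.5 CNH and 11.77 and 11.97 in the E13.5 CNH. From NSB to the E10.5 CNH it fell by 1.96 log2 units (SE 0.402, adjusted p = 0.00213), and at E13.5 it was higher by 1.48 than in the earlier CNH (SE 0.338, adjusted p = 0.00514), with no overlap in either case. Within batches 2 and 3 the E13.5 difference was 1.48 and 0.91.

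Cldn4, a claudin of tight barrier epithelia, was detected on all arrays but E9.5 P-CNH replicate 2. It read 6.45 and 6.62 in the E9.5 CNH, 8.44 and 8.23 at E10.5, 8.83, 8.31 and 9.13 at E11.5, 9.12 and 9.43 at E12.5 and 10.48 and 10.55 at E13.5. The E13.5 arrays lay above all earlier CNH arrays, with a difference of 2.06 log2 units (SE 0.524, adjusted p = 0.0104). Cldn7, which is made along the sides of epithelial cells, read 6.68 and 8.20 at E13.5 and between 5.02 and 6.91 on the earlier CNH arrays, so that the stages overlapped. It was higher by 1.22 (SE 0.366, adjusted p = 0.0267). The batch 2 and batch 3 differences were 2.40 and 1.27 for Cldn4 and 0.64 and 2.22 for Cldn7. The Cldn7 call was lost with cyclic loess, with the replicate number as a block beside batch, and without replicate 2 of the E12.5 or the E13.5 CNH. Neither gene was called in St5, the CLE or the RN against the other E8.5 regions.

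Cldn3, often made with Cldn4, was detected on neither array of E7.5 P, E7.5 PP, St5 or the E9.5 CNH, and on 23 arrays in all. At E7.5 it read 6.71, 6.59 and 7.46 in A and 4.92 and 5.12 in P, which did not overlap, and it was at least 1.82-fold higher in A (adjusted p = 0.0305; a log2 difference of 1.63 within batch 2). This call was lost without A replicate 1 or 3 or P replicate 1 or 2, with cyclic loess, with a larger offset (100), with the replicate number as a block, with no filter, and when background was not corrected (0 member probes called in each). Without CLE replicate 1 or 3, or E11.5 P-CNH replicate 1 or 2, 2 member probes were called in A, Cldn3 and Krt19. In the tail bud Cldn3 read 5.94 and 5.99 in the E9.5 CNH, both undetected, 6.45 and 5.91 at E10.5, 7.09, 6.76 and 7.78 at E11.5, 7.90 and 7.89 at E12.5 and 8.69 and 9.82 at E13.5. The E13.5 arrays were the highest of the CNH, and Cldn3 was called higher there than in the mean of the earlier stages (adjusted p = 0.000835; 1.76 and 1.99 log2 units within batches 2 and 3). Among genes of the other lists, A differed from P in 2 notochord genes, with Shh higher by 2.14 (SE 0.506, adjusted p = 0.0192) and T lower, in Marveld3 and Pkp1, both higher, in the neural gene Pou3f1, higher, and in Apob and Wnt6, lower.

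Cldn9 was detected on all 36 arrays, between 5.55, on St1 replicate 2, and 8.97, on E11.5 P-CNH replicate 2. At E8.5 the arrays of batch 1 read between 5.55 and 6.49, while the CLE arrays read 7.55, 7.85 and 7.07 and NSB replicate 3, of batch 3, read 8.00. The high and low E8.5 values thus separate by batch, with NSB arrays on both sides, and Cldn9 was not called in any comparison.

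Cldn2, a claudin that forms a cation channel in leaky epithelia, was confined to E7.5 among the regions sampled. Its first probe (ILMN_2980323) read 6.67, 7.23 and 7.38 in A, 7.73 and 8.06 in P and 9.68 and 8.81 in PP, was detected on all 7 E7.5 arrays and was detected on none of the other 29. The regions did not overlap and the order was PP, P and A. In PP against P it was higher by 1.61 log2 units (SE 0.322, adjusted p = 0.0142). The other probe (ILMN_1255479) read 7.08, 6.41 and 8.36 in A, 7.23 and 7.87 in P and 9.67 and 9.21 in PP, was detected on the same 7 arrays, overlapped between A and P, and was higher in PP than in P by 1.74 (SE 0.412, adjusted p = 0.0461). In the E8.5 St5 the first probe read 5.05 and 5.10, at least 12-fold below PP (adjusted p = 8.90e-06), and the other was at least 13.7-fold lower (adjusted p = 0.000146). Both probes entered the test through E7.5 arrays alone. Over the 16 region means the probes had a Pearson r of 0.99 and a Spearman rho of 0.81, with an r of 0.99 without PP and P.

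No batch held both PP and P or both PP and St5, so no within-batch value exists for these 2 comparisons. With a random effect of BeadChip and no batch term both Cldn2 probes lost the PP call, with log2 differences of 1.22 in the first and 1.15 in the second, and the 1 member probe called was that of Krt23. The second probe also lost its call with the replicate number as a block and with no filter. Of 36 refits without 1 array each, the first probe kept its PP call in 34 and the second in 6, and 0 member probes were called without P replicate 1 or PP replicate 1. In 26 further refits, each without 1 array, 1 member probe was called. The split over all probes in PP against P moved from 85 higher and 87 lower to 360 higher and 150 lower with cyclic loess.

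Of 7 visceral endoderm genes, 2 were called higher in PP than in P (median 1.46 against 0.01 over all probes), Rbp4 (adjusted p = 0.00163) and Afp by at least 4.62-fold (adjusted p = 0.0108), and Pou3f1, of the neural list, fell by 2.34 log2 units (SE 0.489, adjusted p = 0.0195). In St5 against PP, Apob fell by 5.76 (SE 0.656, adjusted p = 3.48e-05) and Apoa2 was at least 25.9-fold lower (adjusted p = 0.0222), with a list median of -3.03. The summed level of the list was 2100, 2160 and 10900 in A, 10800 and 6070 in P, 37700 and 18000 in PP, led by Ttr, and 2080 and 2170 in St5. All 7 genes were detected on both PP arrays, and Afp and Rbp4 on neither P array. From E9.5 on the sum was at most 511, with at most 2 of the 7 genes detected on an array. The part of visceral endoderm in the Cldn2 values was not tested.

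Cldn10 and Cldn11 were high at the node. Cldn11, known from the myelin of oligodendrocytes and from Sertoli cells, read 9.74 and 9.68 in the RN, 8.16, 8.25 and 8.69 in the NSB, 7.71, 7.65 and 5.89 in the CLE, 6.46 and 6.44 in St1 and 7.61 and 8.03 in St5. The RN lay above all other E8.5 arrays, by 2.44 log2 units against the mean of the other regions (SE 0.486, adjusted p = 0.00404; 2.22 within batch 1). At E7.5 it read 8.77, 8.40 and 8.70 in A, 7.25 and 8.23 in P and 7.40 and 6.97 in PP, and it was undetected on all tail bud arrays. In the E10.5 CNH it was at least 6.74-fold lower than in the NSB (adjusted p = 0.000313).

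Cldn10, which forms ion-selective channels, was read by 3 probes, all called higher in the RN. The brightest (ILMN_2515816) read 8.14 and 8.07 in the RN, 7.30, 7.42 and 7.65 in the NSB, 5.98, 4.97 and 4.65 in the CLE, 6.20 and 6.18 in St1 and 5.28 and 5.73 in St5. The RN lay above the NSB and the NSB above the rest, and the RN was at least 3.09-fold higher than the other regions averaged (adjusted p = 0.00075; 1.75 log2 units within batch 1). The next probe (ILMN_1214954) was at least 1.89-fold higher (adjusted p = 0.000491; 1.52 within batch 1), with RN values of 6.95 and 7.05 that overlapped NSB replicate 3 at 7.13. The dimmest (ILMN_2723576), at 5.82 and 5.84, was detected on the RN arrays alone and allows no fold, with an adjusted p of 0.00164, and its call was lost with a larger offset (100) and when background was not corrected. It also entered the test only through the RN arrays. Over the 16 region means, the first and second probes had a Pearson r of 0.87 and a Spearman rho of 0.67, and an r of 0.68 without RN and NSB. In the E7.5 A region the brightest probe read 7.45, 6.88 and 7.30. Unlike Cldn11, it was still detected in the tail bud, on both E10.5 CNH arrays, at 6.40 and 6.27. It was also detected on 1 array each of the E11.5, E12.5 and E13.5 CNH, and the E13.5 arrays read 6.19 and 6.97. The values of the notochord, endoderm and blood lists in the RN, given with the simple keratins, stand beside this result too, and their part was not tested.

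The promoters of these 2 node claudins are shown because they were called together in the RN. RefSeq gives Cldn10 more than 1 start, here at chr14:118787621-118787870 and chr14:118854700-118854949, and places that of Cldn11 at chr3:31149670-31149919, all on the plus strand in GRCm38.p6 and 250 bases long. Capitals mark GGGCGG.
Cldn10 first start: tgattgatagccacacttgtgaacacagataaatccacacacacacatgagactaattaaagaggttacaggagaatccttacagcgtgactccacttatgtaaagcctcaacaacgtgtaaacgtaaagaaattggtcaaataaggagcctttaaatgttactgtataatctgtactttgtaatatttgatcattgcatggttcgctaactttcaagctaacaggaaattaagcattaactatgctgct
Cldn10 second start: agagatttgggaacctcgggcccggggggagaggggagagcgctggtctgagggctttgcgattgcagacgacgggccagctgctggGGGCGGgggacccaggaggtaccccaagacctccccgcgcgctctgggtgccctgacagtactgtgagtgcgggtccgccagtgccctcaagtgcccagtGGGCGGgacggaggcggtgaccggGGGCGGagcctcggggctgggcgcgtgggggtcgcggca
Cldn11: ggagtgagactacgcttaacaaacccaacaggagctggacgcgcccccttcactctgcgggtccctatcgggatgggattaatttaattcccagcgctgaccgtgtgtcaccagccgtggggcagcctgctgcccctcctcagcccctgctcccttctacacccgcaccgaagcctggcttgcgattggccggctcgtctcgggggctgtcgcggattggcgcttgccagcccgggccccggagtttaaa
GGGCGG had 3 matches before the second start of Cldn10, the nearest with its farther end 39 bases from it, and none before the first or in Cldn11. The other motifs searched above were in none of these 3 windows. Which start the probes of Cldn10 read is not given in the sources used here.

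**Figure D5:**
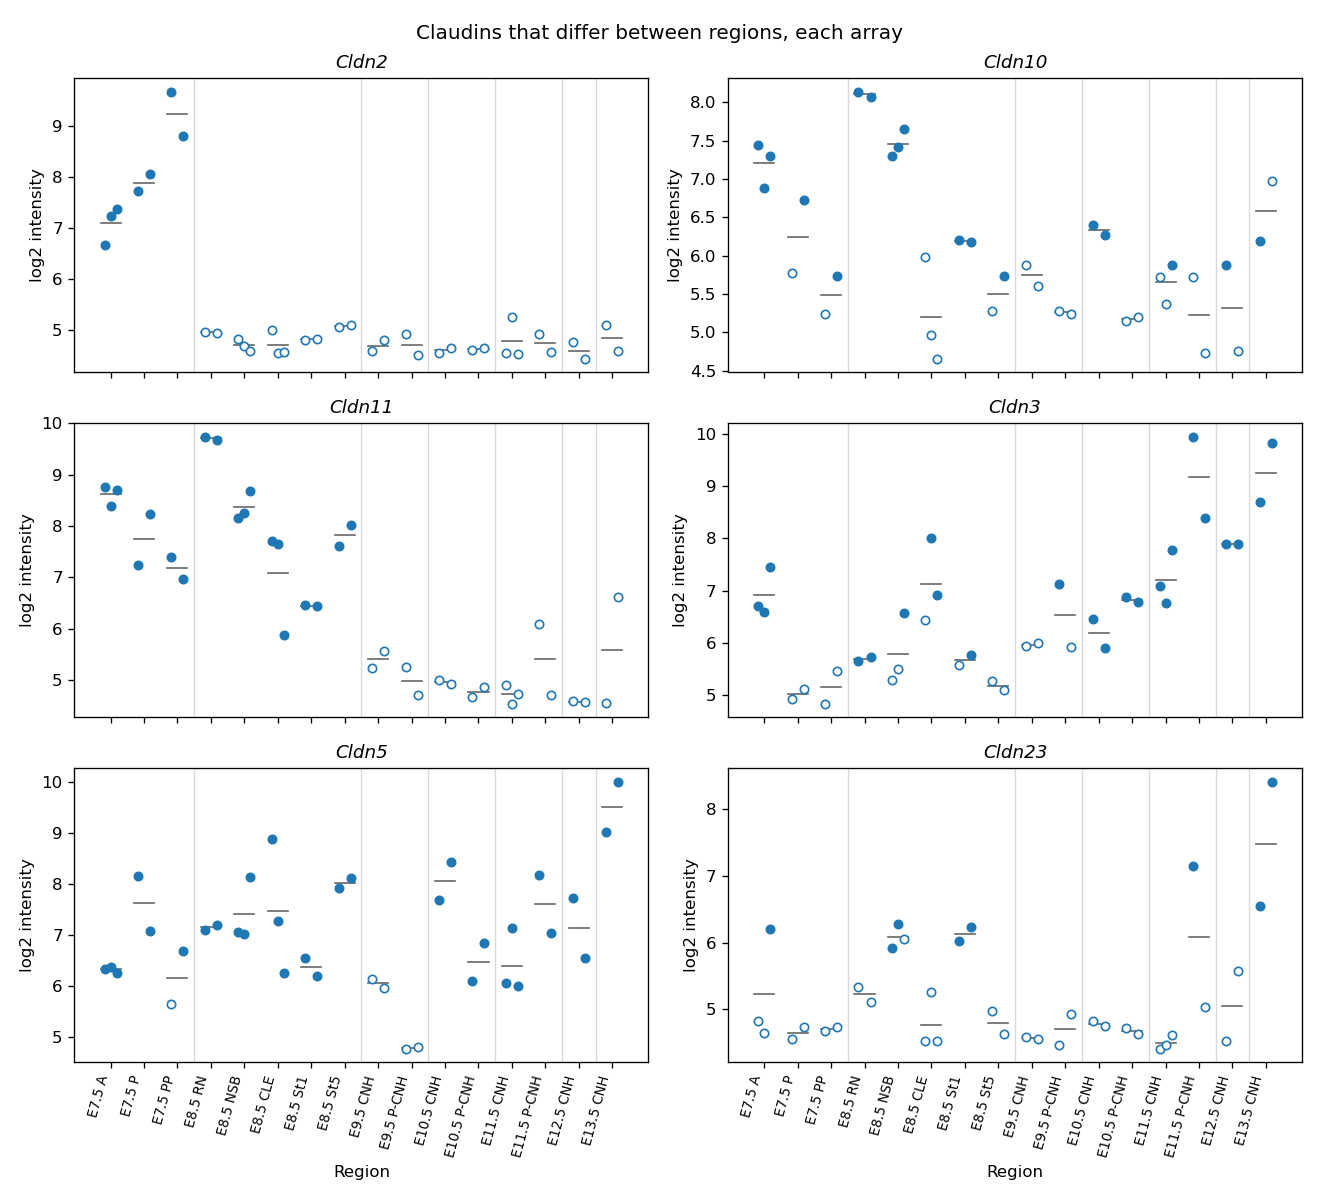
Normalised log2 intensity of Cldn2, Cldn10, Cldn11, Cldn3, Cldn5 and Cldn23 on each array, by region, with filled points where the probe was detected, open points where it was not, and a grey line at the region mean. Cldn2 is detected in the 3 E7.5 regions alone, Cldn11 reads 9.74 and 9.68 in the RN, and Cldn23 reads 6.55 and 8.41 in the E13.5 CNH.

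Cldn5, the claudin of vessel walls, was detected on 31 arrays. It read 6.14 and 5.96 in the E9.5 CNH, both undetected, 7.69 and 8.43 at E10.5, 6.06, 7.13 and 5.99 at E11.5, 7.72 and 6.54 at E12.5 and 9.02 and 10.00 at E13.5. The E13.5 arrays lay above all earlier CNH arrays and Cldn5 was called higher (adjusted p = 0.00213), with log2 differences of 2.23 and 3.74 within batches 2 and 3 and an adjusted p of 0.174 without replicate 2. Of the endothelial genes Pecam1 was at least 3.15-fold higher (adjusted p = 7.63e-05), Emcn at least 3.25-fold (adjusted p = 0.00296) and Cdh5, detected on 1 of 2 E13.5 arrays, at least 2.35-fold (adjusted p = 0.000754). Their summed level was 256 and 306 at E9.5, 1150 and 1490 at E10.5, 431, 599 and 368 at E11.5, 624 and 378 at E12.5 and 1840 and 1510 at E13.5, led by Emcn on replicate 1 and Esam on replicate 2 at the last stage. The CNH stages with the higher mean Cldn5 values, E10.5 and E13.5, were those with the higher sums. Single arrays did not all keep this order, since Cldn5 was 7.72 on E12.5 replicate 1 (sum 624) and 7.69 on E10.5 replicate 1 (sum 1150). The part of endothelium in the Cldn5 values was not tested. In St5, where 4 of 6 endothelial genes were called higher, Cldn5 read 7.92 and 8.12, against 7.10 and 7.19 in the RN and 6.55 and 6.20 in St1, and was not called, while CLE replicate 1 read 8.88 and NSB replicate 3 8.13. Kdr and Tie1 had no detected probe.

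Cldn23 and Cldn12 differed at E13.5 in opposite directions. Cldn23 read 6.55 and 8.41 in the E13.5 CNH and between 4.41 and 5.57, all undetected, on the earlier CNH arrays, and was at least 2.99-fold higher (adjusted p = 3.81e-05; 2.04 and 3.32 log2 units within batches 2 and 3). It was also detected on both St1 arrays, at 6.02 and 6.23, on NSB replicates 1 and 2, at 5.92 and 6.28, on E7.5 A replicate 3 and on E11.5 P-CNH replicate 1, at 7.14. Cldn12, a claudin of broad expression, read 10.26 and 10.36 at E9.5, 10.32 and 10.42 at E10.5, 9.28, 9.60 and 9.82 at E11.5, 9.41 and 9.90 at E12.5 and 8.46 and 9.29 at E13.5. Replicate 2 of E13.5 overlapped E11.5, and the gene fell by 0.99 log2 units (SE 0.226, adjusted p = 0.00484; -1.26 and -0.57 within batches 2 and 3). Without replicate 1 its difference was -0.76 with an adjusted p of 0.0539. Cldn15, of the intestine, was detected on 7 arrays, the highest being E13.5 CNH replicate 2 at 7.75, and Cldn1, of the epidermal barrier, on 4 arrays, of which both RN arrays read 5.96 and 6.04 and E11.5 CNH replicate 2 read 6.81. Neither was called in any comparison.

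No member was called between the CNH and the P-CNH, where markers of other cell types did differ. The 7 probes with an unadjusted p under 0.05 were those of Krt15, Krt18, Krt19, Krt82, Cldn3, Cldn10 and the dimmer probe of Krt86, with adjusted p from 0.254 to 1. Cldn3, with an adjusted p of 0.397, read 7.13 and 5.92 in the P-CNH at E9.5, 6.88 and 6.78 at E10.5 and 9.95 and 8.39 at E11.5. Both arrays of the E10.5 and E11.5 P-CNH lay above the CNH arrays of their stage. With a random effect of BeadChip and no batch term, 1 probe, of Krt86, was called. Without E9.5 P-CNH replicate 1, Krt18 was called, without E9.5 P-CNH replicate 2, Cldn3 and Cldn4, and without E11.5 P-CNH replicate 2, Krt19, Cldn3 and Krt86. Of the notochord genes Shh was at least 22.8-fold higher in the CNH (adjusted p = 2.51e-09) and Noto at least 5.95-fold (adjusted p = 3.09e-06), and 4 of 8 endoderm genes were called higher, whereas Tfap2c, of surface ectoderm, fell by 1.49 (SE 0.308, adjusted p = 0.0166), and Rab25 lay at least 1.73-fold lower (adjusted p = 0.0269). A test of whether the difference between CNH and P-CNH itself differed between stages gave 0 called probes among the members. Over all probes it gave 0 for E10.5 against E9.5, 6 for E11.5 against E9.5 and 1 for E11.5 against E10.5. Differences of opposite sign at single stages can cancel in the average over stages. Within the batch of each stage, Cldn5 in the CNH differed from the P-CNH by 1.28 at E9.5, 1.59 at E10.5 and -1.62 at E11.5. For Cldn6 these values were -0.62, 0.83 and -1.04.

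The remaining lists moved in few comparisons. Of 7 mesenchyme genes, Twist1 was higher at E13.5 by 2.24 log2 units (SE 0.316, adjusted p = 4.45e-05), Zeb1 was higher in the E10.5 CNH than in the NSB by 1.87 (SE 0.254, adjusted p = 1.72e-05), and in St5 Snai1 and Twist1 were called higher and Zeb2 lower. Of 3 neural genes, Pou3f1 was at least 3.96-fold lower in the E10.5 CNH than in the NSB (adjusted p = 0.000134), and at least 3.43-fold higher in the RN (adjusted p = 0.00509), and Sox2 and Pou3f1 were lower in St5. Sox1 and Pax6 had no detected probe. Of the 4 blood genes, Hbb-bh1 was at least 4.51-fold lower in the CLE (adjusted p = 0.0278) and lower at E13.5 than in the earlier CNH. At E13.5 the endoderm genes Foxa2 and Trh fell and Cpm was higher, Noto fell by 2.26 (SE 0.475, adjusted p = 0.00258), and no visceral endoderm or neural gene was called. In the CLE, Shh was at least 9.04-fold lower (adjusted p = 0.000674), and 0 desmosome, tight junction, endothelium, mesenchyme or neural genes were called.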

How the data were processed

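The authors deposited non-normalised bead summary intensity values with a detection p-value for each of 45281 probes on 36 arrays, and these were the start of all values here. The authors' own values, made with lumi by variance stabilisation and robust spline normalisation and corrected for batch with ComBat, were not used. In R 4.3.3, limma 3.58.1 (neqc) corrected the intensity for background with the detection p-value, added an offset of 16, quantile normalised and took log2. A probe was tested if its detection p-value was under 0.01 on at least 1 array, which left out 23569 probes and kept 21712. limma fitted 16 regions and 3 batches in 1 model. Called probes had a p of 0.05 or less, adjusted by Benjamini-Hochberg within the comparison, and a fold change of 1.5 or more. These p-values measure the spread between pooled samples, not between embryos.

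Where a gene had several probes, the one with the highest mean log2 value stands for it unless a probe is named. Every called member is named. The marker lists (surface ectoderm, epithelial junction partners, tight junction partners, desmosome partners, visceral endoderm, definitive endoderm and gut, notochord, endothelium, mesenchyme, neural, blood) hold 89 genes, of which 77 were tested and 5 were found under an older symbol, and up to 3 called genes per list, by largest absolute log2 difference, are named with values. Members and lists were chosen with earlier results of these data known. A summed level is the sum of the linear normalised values of the tested genes of a list. All 68 member symbols, and all 32 of the detected genes, are in RefSeq for GRCm38.p6, and promoters were found for 22 of the 32. The result of 1 gene of the marker lists is not reported here.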

Additional observations from a re-analysis of the deposited data

Results flagged for a closer look

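Krt1-5 probe ILMN_2534431 highest log2 value: 7.43, on E11.5 P-CNH replicate 2. The symbol of this probe falls outside the member rule, and RefSeq lists it as another name of Krt36. It was detected on 7 arrays. It read 6.74, 6.90 and 7.21 in the E11.5 CNH, 5.63 and 7.43 in the E11.5 P-CNH, 6.78 and 7.06 in the E12.5 CNH, 6.97 and 4.94 in the E13.5 CNH, and between 4.58 and 5.39 on all other arrays.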

How the results depend on the processing

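The numbers of member probes called were compared with those of other settings and of refits without 1 array. In St5 the number was 2, and 6 with cyclic loess, 4 with no batch term and 5 with a random BeadChip block (correlation 0.4829). In the CLE it was 3, and 11 with no batch term and 9 with the BeadChip block. In E7.5 A against P it was 1, and 0 with cyclic loess, with a larger offset (100), with a replicate block, with no filter and when background was not corrected. In PP against P it was 2, both of Cldn2, and 1 with the replicate block and with no filter. With the BeadChip block it was also 1, of Krt23, and both Cldn2 probes were lost. In St5 against PP it was 2, and 4 with cyclic loess and with the replicate block. At E13.5 it was 17, and 11 with cyclic loess. In the CNH against the P-CNH it was 0, and 1 with the BeadChip block. In the RN it lay between 7 and 10 and in the E10.5 CNH between 5 and 8.

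Without 1 array each, the numbers ranged over 0 to 3 in St5, 2 to 5 in the CLE, 4 to 8 in the RN, 0 to 2 in A, 0 to 3 in PP, 2 to 5 in St5 against PP, 4 to 7 in the E10.5 CNH, 11 to 24 at E13.5 and 0 to 3 in the CNH against the P-CNH. Without NSB replicate 3 the comparisons of St5, CLE, RN, St5 with PP and E13.5 cannot be fitted, which leaves 35 refits for these and 36 for the others. Where a region kept 1 array, that array was assumed to vary like the others. Of 1409 refits of single called members, 1333 kept the result, 75 were weaker and 1 was reversed, Krt5 at E13.5 with a log2 difference of -0.01 without replicate 1 (3.37 without replicate 2). Of 318 refits with all arrays, 292 kept the result and 26 were weaker. Of 53 differences within a batch, 27 lay within 1 SD between replicates of the fitted one, 26 lay further away and 0 had the other sign. The 6 of the E10.5 CNH against the NSB, counted among the 27, equal the fitted ones by construction.

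With arrays of the same replicate number as a block beside batch, 3 member probes were called in St5, 2 in the CLE, 7 in the RN, 0 in A, 1 in PP, 4 in St5 against PP, 6 in the E10.5 CNH, 15 at E13.5 and 0 in the CNH against the P-CNH. After removal of region and batch means, 79 of 246 pairs of arrays with the same number correlated above 0.1 (median r 0.03, range -0.72 to 0.74), against a median of -0.02 for different numbers. For 21 of 36 arrays the closest number was their own. Signal over background differed between arrays from 2.28 to 15.1 and was not part of the model, and the cause of these differences was not tested.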
